A study of Mus musculus with 6 samples.

Results

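Cholesterol synthesis and sterol sensing were followed through 27 genes in mouse liver, chosen by symbol from 21899 genes in the deposited table. They comprise 19 enzymes of the route from acetyl-CoA to cholesterol, 4 genes of the sterol sensor and 4 genes of sterol movement, esterification and receptor turnover. All 27 passed the filter on low counts and were among the 12599 genes tested. The livers came from wild-type C57BL6J mice randomized to a methionine- and choline-sufficient diet (MCS, the control, 3 libraries) or a diet lacking both nutrients (MCD, 3 libraries) for 6 weeks. The MCD diet is a model of steatohepatitis in which mice lose weight, and both groups share strain, genotype and duration; the sources used here give no age or sex. They also do not say that the libraries of a diet came from separate animals, so p-values measure the spread between these libraries, which may be technical. Libraries held 16615469 to 21322771 counts, and 3 counts corresponded to 0.104 to 0.226 CPM (counts scaled to the TMM-adjusted library size), below the lowest level of any of the 27 genes. The hepatocyte marker Alb was at 43198 to 73660 CPM, and 12 hepatocyte markers were present in every library. Replicate 3 of both diets stood apart in 8 sinusoidal endothelial markers, whose sum was 427 CPM in MCS replicate 3 and 375 CPM in MCD replicate 3 against 72.7 to 145 CPM in the other 4 libraries. In whole liver, fewer cells of a type and less RNA per cell cannot be told apart.

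Cells build cholesterol from acetyl-CoA through mevalonate, isoprenoid pyrophosphates, squalene and lanosterol, and the liver is a main site of this synthesis in the body. When sterols in the endoplasmic reticulum run low, the escort protein SCAP carries the transcription factor SREBP2 to the Golgi, where proteases release it to switch on genes along the whole route. When sterols are plentiful, the INSIG proteins hold SCAP back, while excess cholesterol is esterified by the SOAT enzymes and oxysterols activate the LXR receptors.

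The promoters of the 5 enzyme genes that passed the test between the diets are shown first, because genes of this route are known to share SREBP2, NF-Y and Sp1 sites near their starts. Sequences are from RefSeq on GRCm38.p6, not the GRCm39 build named for the counts, and cover the 250 bases before the annotated start. Hmgcs1 lies at chr13:119690101-119690350 on the plus strand and Mvd at chr8:122443423-122443672 on the minus strand. Idi1 lies at chr13:8885356-8885605 on the plus strand, Tm7sf2 at chr19:6067851-6068100 on the minus strand and Ebp at chrX:8193513-8193762 on the minus strand. Capitals mark a match, on either strand, to TCACNCC (core letters of the sterol regulatory element), CCAAT (NF-Y) or GGGCGG (Sp1); a match on the opposite strand reads as its reverse complement.
Hmgcs1: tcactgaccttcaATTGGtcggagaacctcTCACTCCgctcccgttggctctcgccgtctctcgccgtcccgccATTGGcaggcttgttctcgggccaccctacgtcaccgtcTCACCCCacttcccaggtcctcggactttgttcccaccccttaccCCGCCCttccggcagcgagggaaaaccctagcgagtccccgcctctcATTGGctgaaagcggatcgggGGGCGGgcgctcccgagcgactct
Mvd: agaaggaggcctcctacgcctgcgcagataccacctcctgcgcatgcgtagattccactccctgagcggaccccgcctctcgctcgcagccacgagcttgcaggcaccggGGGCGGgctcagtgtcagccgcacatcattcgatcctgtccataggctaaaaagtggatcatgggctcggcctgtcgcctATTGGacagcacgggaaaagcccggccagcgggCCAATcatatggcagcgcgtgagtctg
Idi1: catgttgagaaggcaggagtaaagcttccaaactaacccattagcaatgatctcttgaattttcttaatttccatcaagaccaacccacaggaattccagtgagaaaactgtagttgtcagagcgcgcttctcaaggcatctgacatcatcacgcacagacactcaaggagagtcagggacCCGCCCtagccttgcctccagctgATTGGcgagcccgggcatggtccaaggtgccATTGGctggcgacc
Tm7sf2: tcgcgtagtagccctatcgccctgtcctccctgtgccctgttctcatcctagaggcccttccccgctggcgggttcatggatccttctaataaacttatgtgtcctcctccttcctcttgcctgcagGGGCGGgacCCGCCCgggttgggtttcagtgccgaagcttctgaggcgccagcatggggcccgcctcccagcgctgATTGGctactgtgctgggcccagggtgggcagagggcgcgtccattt
Ebp: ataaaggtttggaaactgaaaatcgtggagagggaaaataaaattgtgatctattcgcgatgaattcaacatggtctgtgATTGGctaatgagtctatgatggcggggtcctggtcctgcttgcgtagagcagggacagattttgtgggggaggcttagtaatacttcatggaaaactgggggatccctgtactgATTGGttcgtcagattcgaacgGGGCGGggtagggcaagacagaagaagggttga
Hmgcs1, the enzyme gene with the largest rise, was the only one of these 5 with TCACNCC, beginning 220 and 137 bases before the start. All 5 held CCAAT and GGGCGG, including both genes that fell. Of the 27 genes, 22 matched the promoter table by symbol (all but Fdps, Fdft1, Sqle, Stard4 and Soat2), with 28 promoter entries. CCAAT was found in 71.4% of these 28 entries against 33.8% of all 32851, GGGCGG in 75.0% against 32.7%, and TCACNCC in 21.4% against 13.4%. The TCACNCC share rests on only 6 entries, which include separate entries of Insig2. By gene, TCACNCC was found in 5 of the 22: Hmgcs1, Acat2, Msmo1, Srebf2 and Insig2. Of these, only Hmgcs1 passed the test between the diets. A match of letters is a description and no proof of a bound site.

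Between the diets, 7 of the 27 genes passed the test: 4 rose on MCD (Hmgcs1, Mvd, Idi1 and Soat1), 3 fell (Tm7sf2, Ebp and Scap) and the other 20 did not pass. Among all 12599 tested genes 24.7% passed, 14.8% rose and 9.96% fell, so the counts of 7, 4 and 3 of 27 are near these shares. The median log2 fold change (MCD over MCS) of the 27 was 0.32 against 0.01 for all tested genes, and 21 of 27 had a value above 0. Without MCS replicate 3 the median was 0.12 and 16 of 27 were above 0, and without MCD replicate 1 they were 0.25 and 16. The diets did not overlap for the same 7 genes, 4 higher and 3 lower on MCD, where 23.9% and 21.3% of all tested genes showed this. With library size alone the median of all genes moved to 0.57, and 14 of the 27 rose and 3 fell. Under that scaling 5094 of all 12599 tested genes rose and 348 fell. Changes are given relative to the median gene. All 7 genes kept their direction under all 15 alternatives tried.

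**Figure D1:**
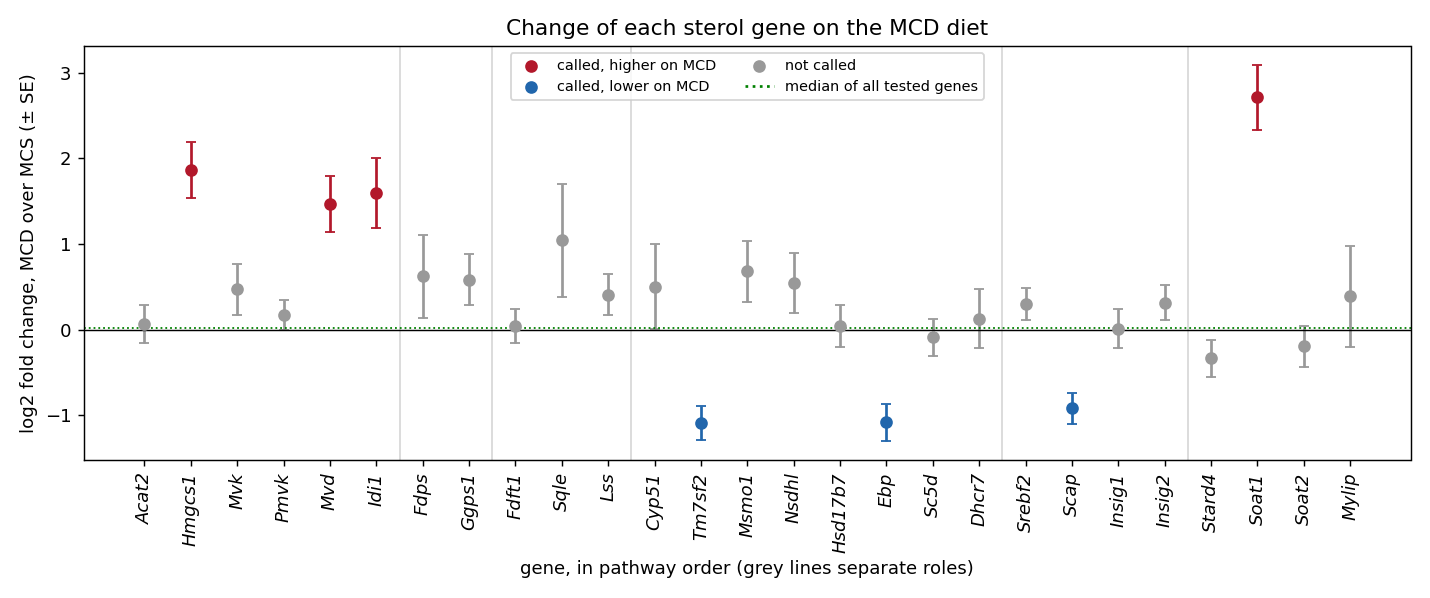
Log2 fold change of each gene on the MCD diet over the MCS diet (vertical axis, ± SE, 3 libraries per diet) in pathway order, with the median of all tested genes as a dotted line. The 3 red enzyme genes lie in the mevalonate arm, the blue points are Tm7sf2, Ebp and Scap, and Soat1 has the highest value, 2.72.

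The mevalonate arm, from acetyl-CoA to isopentenyl and dimethylallyl pyrophosphate, held 3 of the 4 rises: 3 of its 6 genes rose and 0 fell, with a median log2 fold change of 0.97. Among all tested genes 14.8% rose and 9.96% fell. Hmgcs1 (ENSMUSG00000093930) encodes the cytosolic synthase that makes HMG-CoA. Hmgcs1 stood at 85.8, 105.3 and 69.8 CPM in the MCS libraries (replicates 1 to 3, in this order throughout) and at 492, 217 and 241 CPM in the MCD libraries. Every MCD library was above every MCS library, and MCD replicate 1 was the highest by far. The log2 fold change was 1.86 ± 0.33 (SE), a 3.64-fold rise with adjusted p = 0.00594 (edgeR's quasi-likelihood test, n = 3 libraries per diet). It fell to 1.40 without MCD replicate 1, where the gene still passed (adjusted p = 0.0102). Without replicate 3 of both diets, a setting chosen after seeing the data, Hmgcs1 did not pass (log2 fold change 1.89, adjusted p = 0.0722, the highest of 15 alternatives that began at 2.22e-07).

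Mvd and Idi1 act at the end of this arm. Mvd (ENSMUSG00000006517), the decarboxylase that yields isopentenyl pyrophosphate, was low in the liver, at 5.58, 5.13 and 2.76 CPM on MCS and 15.01, 13.97 and 8.25 CPM on MCD. The ranges did not overlap, and replicate 3 was the lowest library of each diet. Mvd rose 2.77-fold (log2 fold change 1.47 ± 0.32, adjusted p = 0.0138), and missed the threshold without MCD replicate 1 (adjusted p = 0.0585; range over 15 alternatives 0.000310 to 0.0585). Idi1 (ENSMUSG00000058258), the isomerase that interconverts the isoprenoid building blocks, was at 41.0, 51.8 and 15.8 CPM on MCS and 133, 84.4 and 111 CPM on MCD. All MCD libraries were above all MCS libraries, and MCS replicate 3 was far below the other controls. The 3.03-fold rise (1.60 ± 0.41, adjusted p = 0.0301) passed under 10 of 15 alternatives, the fewest of the 7 genes. Idi1 did not pass without MCS replicate 1 or any single MCD replicate, nor without a count filter (adjusted p = 0.0515 to 0.134), although its log2 fold change stayed between 1.23 and 1.94 with 1 library left out.

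The other 3 genes of the arm did not pass the test. Mvk, the kinase that phosphorylates mevalonate, was at 19.5, 23.5 and 11.2 CPM on MCS and 32.2, 25.3 and 17.6 CPM on MCD (log2 fold change 0.47 ± 0.30, adjusted p = 0.278). Pmvk, the next kinase, was at 12.8 to 16.6 CPM on MCS and 13.5 to 19.01 CPM on MCD (0.17 ± 0.18, adjusted p = 0.510). Acat2, the cytosolic thiolase that joins acetyl-CoA units, was at 41.0 to 56.6 CPM and 35.4 to 62.4 CPM (0.07 ± 0.23, adjusted p = 0.854). Both diets overlapped for each of these genes, and Acat2 has a near-identical copy, Acat3, with which its reads could be divided, so its value is uncertain.

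**Figure D2:**
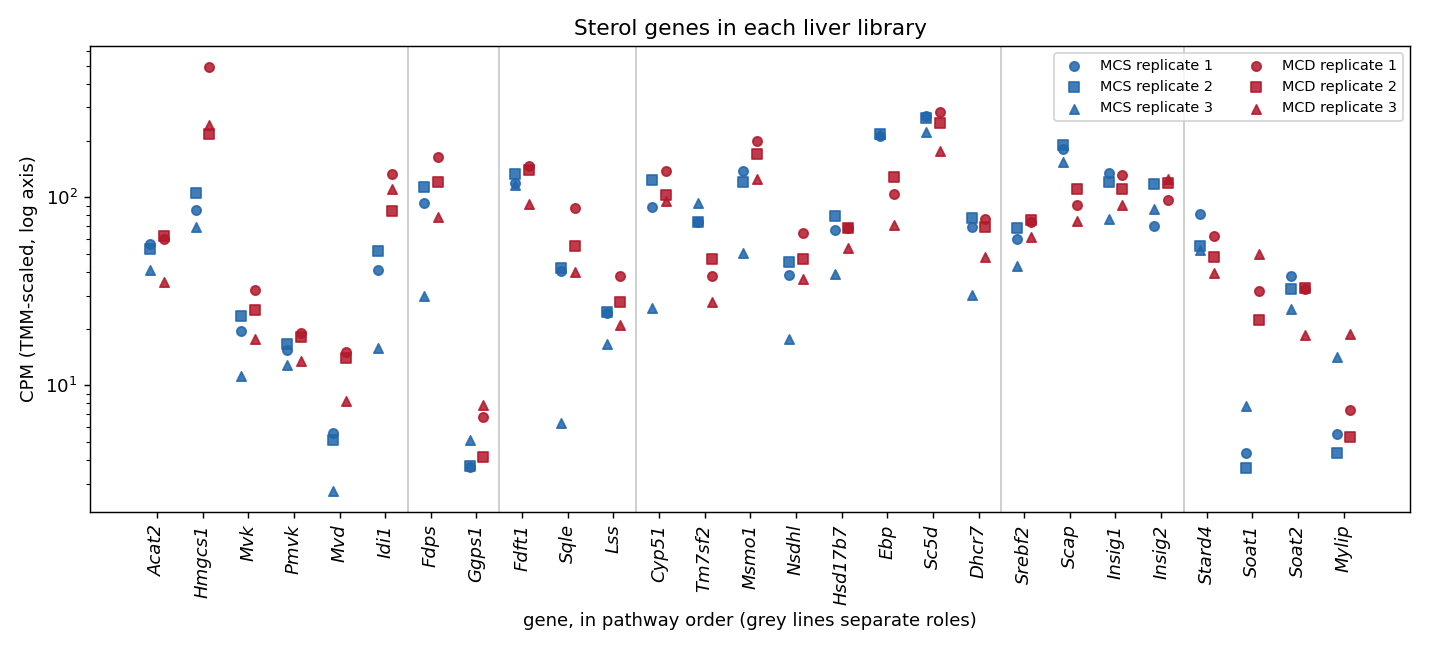
Level of each gene in CPM on a log axis (vertical) in every library, in pathway order; blue points are MCS, red points MCD, and the marker shape gives the replicate. The blue triangles of Sqle, Cyp51, Fdps and Idi1 (MCS replicate 3) lie far below the other points of those genes.

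Where the route branches, Fdps makes farnesyl pyrophosphate, the precursor of squalene and of prenyl groups, and Ggps1 extends it to geranylgeranyl pyrophosphate. Fdps (ENSMUSG00000059743) was at 92.6, 114 and 29.8 CPM on MCS and 164, 121 and 78.1 CPM on MCD. MCS replicate 3 stood far below the other 5 libraries, and the diets overlapped. The log2 fold change of 0.62 ± 0.49 did not pass (adjusted p = 0.387) and was 0.22 without MCS replicate 3 (adjusted p = 0.638; range over 15 alternatives 0.0274 to 0.714). Ggps1 (ENSMUSG00000021302) was at 3.68, 3.70 and 5.13 CPM on MCS and 6.79, 4.16 and 7.83 CPM on MCD (0.59 ± 0.30, adjusted p = 0.184). Unlike most enzymes of the route, Ggps1 was highest in replicate 3 of each diet.

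From squalene to lanosterol, none of the 3 genes passed edgeR's test (0 of 3, and 0 with an unadjusted p under 0.05; DESeq2 also called 0 of 3). Sqle (ENSMUSG00000022351), the squalene epoxidase and a flux-controlling enzyme, varied more inside the MCS diet than any other of the 27 genes. It was at 40.5, 42.0 and 6.28 CPM on MCS and 87.2, 54.9 and 40.2 CPM on MCD. The lowest MCD library was just below the 2 higher MCS libraries, and MCS replicate 3 was at 15.2% of the mean of the other controls. Its log2 fold change was 1.04 ± 0.66 (adjusted p = 0.287) with all libraries and 0.55 without MCS replicate 3 (adjusted p = 0.237). Without replicate 3 of both diets, a setting chosen after seeing the data, the smaller log2 fold change of 0.78 passed (adjusted p = 0.0260; range over 15 alternatives 0.0260 to 0.576). Fdft1, the squalene synthase, was even on MCS but not on MCD, at 118, 133 and 116 CPM on MCS and 146, 140.0 and 91.9 CPM on MCD (0.04 ± 0.20, adjusted p = 0.899). Lss, which cyclizes the epoxide to lanosterol, was at 24.3, 24.5 and 16.6 CPM and 38.1, 27.8 and 20.8 CPM (0.41 ± 0.24, adjusted p = 0.237).

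Lanosterol is turned into cholesterol by demethylation, reduction and isomerization. In this stretch 2 of the 8 genes fell while 0 rose, against 9.96% and 14.8% of all tested genes. Tm7sf2 (ENSMUSG00000024799), a sterol reductase that acts just after the demethylase, was at 73.9, 73.8 and 92.9 CPM on MCS and 38.1, 46.9 and 27.8 CPM on MCD. The diets were well apart, and MCS replicate 3 was the highest library of all. Tm7sf2 was 2.13-fold lower on MCD (log2 fold change −1.09 ± 0.20, adjusted p = 0.00694) and passed under all 15 alternatives (adjusted p = 3.62e-05 to 0.0458). With library size alone the change was −0.58. Ebp (ENSMUSG00000031168), the isomerase that shifts the ring double bond, was nearly constant on MCS at 211, 216 and 217 CPM and was at 104, 129 and 71.2 CPM on MCD. No MCD library reached the controls. Ebp was 2.12-fold lower (−1.08 ± 0.22, adjusted p = 0.00938), and −0.36 on the log2(TPM + 1) scale, where it did not pass (adjusted p = 0.0822; lowest of 15 alternatives 2.80e-05). Of the 12 hepatocyte markers, 4 fell and 0 rose on MCD, with a median log2 fold change of −0.78, and their part in the lower values of Tm7sf2, Ebp and Scap was not tested. Lbr, a nuclear envelope protein with the same reductase activity as Tm7sf2, is not among the 27 and was looked at after these values were seen: it was at 5.89 to 7.11 CPM on MCS and 7.60 to 11.8 CPM on MCD (0.69 ± 0.23), without passing (adjusted p = 0.0536).

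The remaining 6 genes of this stretch did not pass, and 5 of them had a wide MCS range set by replicate 3. Cyp51 (ENSMUSG00000001467), the lanosterol demethylase, was at 88.5, 124 and 25.8 CPM on MCS and 137, 103 and 95.6 CPM on MCD. Msmo1, the oxidase that begins removal of the other methyl groups, was at 137, 121 and 50.4 CPM on MCS and 199, 169.9 and 125 CPM on MCD. In both genes MCS replicate 3 was the lowest of the 6 libraries. The log2 fold changes were 0.50 ± 0.50 for Cyp51 and 0.68 ± 0.36 for Msmo1 (adjusted p = 0.497 and 0.196). Without MCS replicate 3 they were 0.07 and 0.34 (adjusted p = 0.850 and 0.328). Msmo1 passed without replicate 3 of both diets (0.51, adjusted p = 0.0205; range over 15 alternatives 0.0101 to 0.417).

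Nsdhl and Hsd17b7, which complete the demethylation, and Dhcr7, which reduces the last ring double bond, showed the same low control library. Nsdhl was at 38.5, 45.3 and 17.6 CPM on MCS and 64.3, 47.1 and 36.8 CPM on MCD (0.55 ± 0.35, adjusted p = 0.283). Hsd17b7 was at 66.9, 79.1 and 39.0 CPM and 68.4, 68.7 and 53.4 CPM (0.04 ± 0.24, adjusted p = 0.915), and Dhcr7 at 69.7, 77.3 and 30.2 CPM and 76.3, 69.1 and 48.2 CPM (0.13 ± 0.34, adjusted p = 0.811). Sc5d, the desaturase between Ebp and Dhcr7, had a narrow range on MCS only, at 221 to 272 CPM on MCS and 176 to 284 CPM on MCD (−0.09 ± 0.21, adjusted p = 0.779; 0.44 with library size alone).

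The spread inside the control diet lay mostly with MCS replicate 3 across the route. Over the 19 enzymes, MCS replicate 3 was the lowest control library for 16 (84.2%), against 38.8% of all tested genes. It was also lowest for 14 of 17 genes of SREBP processing and sterol-regulated degradation (82.4%) and 11 of 16 of sterol uptake and movement (68.75%). The shares were 46.2% for LXR action and sterol efflux, 43.75% for isoprenoid use and 50% for 4 further synthesis genes. The median log2 ratio of MCS replicate 3 to the mean of MCS replicates 1 and 2 was −0.90 for the enzymes and −0.01 for all tested genes. TMM scaling holds the latter near 0, so it does not show that this library was otherwise like the other controls. The ratio was −0.26 for SREBP processing and degradation and −0.23 for uptake and movement. Sqle, Cyp51, Fdps, Idi1 and Msmo1 were at 15.2%, 24.3%, 28.9%, 34.0% and 39.0% of the mean of the other controls, while Fdft1 was at 92.0% and Sc5d at 82.8%. The 3 exceptions were Ggps1, Tm7sf2 and Ebp, at 139%, 126% and 102%, and the last 2 are also the enzymes that fell on MCD. MCS replicate 3 is 1 of the controls in that comparison, so the 2 patterns are not independent. Tm7sf2 and Ebp still passed without it. Counted over all 27 genes, MCS replicate 3 was lowest for 21, and for 19 with library size alone or in TPM (length-scaled transcript abundance, as deposited).

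**Figure D3:**
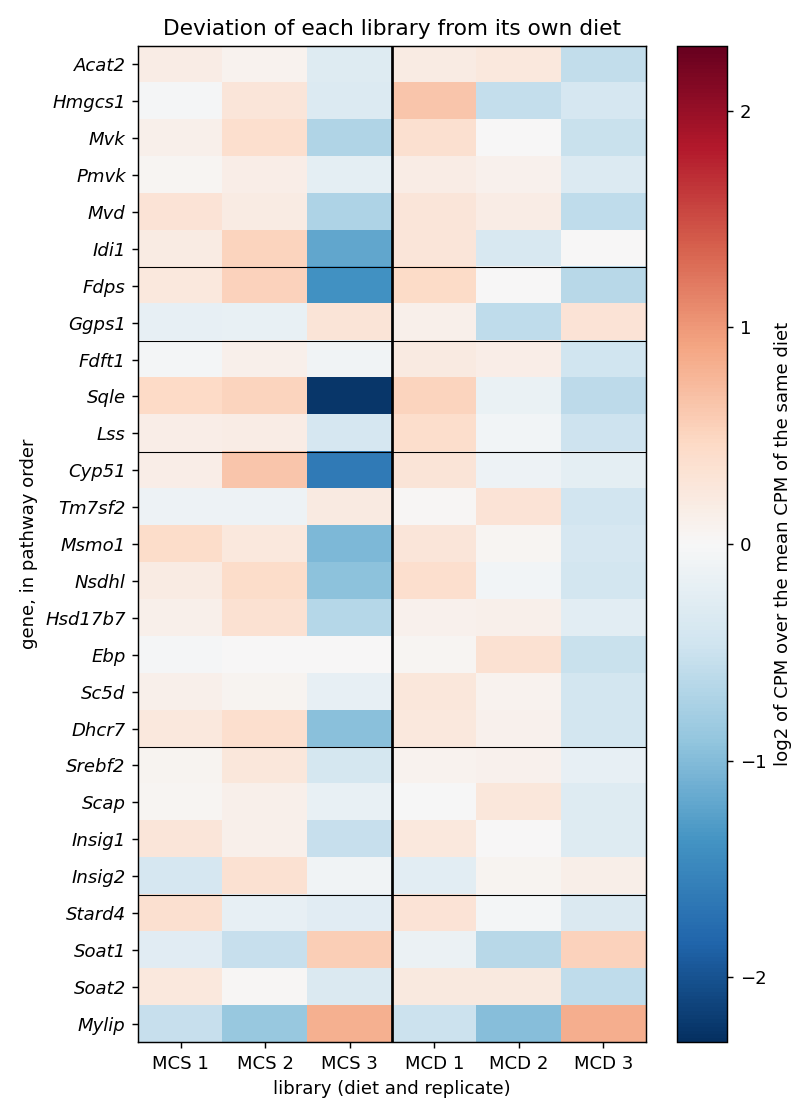
Log2 of each library's CPM over the mean CPM of its own diet (colour), for each gene (rows, in pathway order) and library (columns; the black line separates the diets). The MCS 3 column is blue for most enzymes and darkest for Sqle, while Ggps1, Tm7sf2, Soat1 and Mylip are red there.

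Inside the MCD diet the range was wider than on MCS for 9 of the 19 enzymes and narrower for 10. The median ratio of the highest to the lowest library was 2.02 on MCS and 1.75 on MCD for the 19 enzymes, against 1.33 and 1.45 for all tested genes. A ratio above 2 was seen for 10 of 19 enzymes on MCS and 3 of 19 on MCD, against 16.1% and 21.3% of all tested genes. MCD replicate 1 was the highest MCD library for 14 of 19 enzymes (73.7%, against 19.8% of all tested genes), led by Hmgcs1. MCD replicate 3 was the lowest of its diet for 21 of the 27 genes, but for 13 with library size alone and 8 in TPM, so its place depends on the scaling, in contrast to MCS replicate 3.

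**Figure D4:**
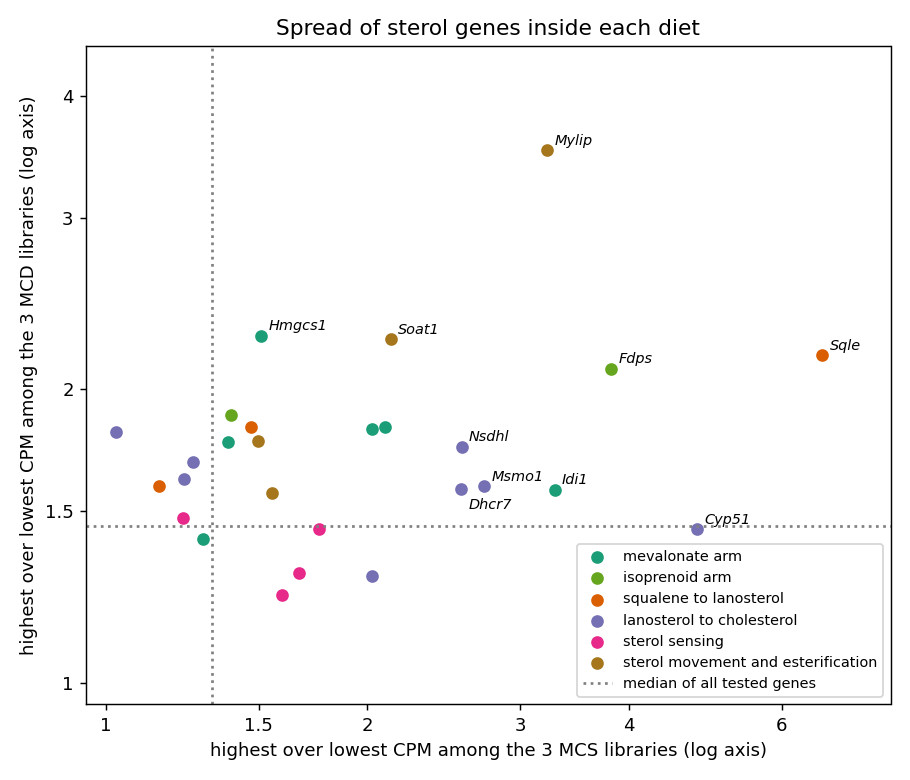
Ratio of the highest to the lowest library among the 3 MCS (horizontal, log axis) and the 3 MCD libraries (vertical, log axis), coloured by role, with the medians of all tested genes dotted. Sqle, Cyp51, Fdps and Idi1 lie far to the right, at 6.68, 4.79, 3.82 and 3.28 on MCS; genes with a ratio above 2.1 in either diet are named.

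Markers of other cell types were set beside this pattern. The sum of 12 hepatocyte markers was 103638, 103845 and 125910 CPM in MCS replicates 1 to 3. Alb made up much of it: the other 11 markers, summed after seeing the data, were at 50323, 53246 and 52250 CPM, MCS replicate 3 was lowest for 6 of the 12, and the median log2 ratio of MCS replicate 3 to the mean of the other controls was −0.02. The summed enzymes were at 1461, 1571 and 1021 CPM in these libraries. All 8 sinusoidal endothelial markers were highest in MCS replicate 3 among the controls, and their sum was 106, 145 and 427 CPM. On MCD the hepatocyte sum was 85543, 107161 and 64332 CPM, the enzyme sum 2165, 1651 and 1299.8 CPM and the endothelial sum 104, 72.7 and 375 CPM. Among other lists, 4 of 10 stellate markers and 5 of 6 cholangiocyte markers rose, and 3 of 6 Kupffer cell markers fell. The shares over all tested genes were 14.8% up and 9.96% down. Spp1, among the cholangiocyte markers that rose, is also on the list of recruited macrophage markers. None of these markers was at 0 in any library, and their part in the enzyme values was not tested.

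**Figure D5:**
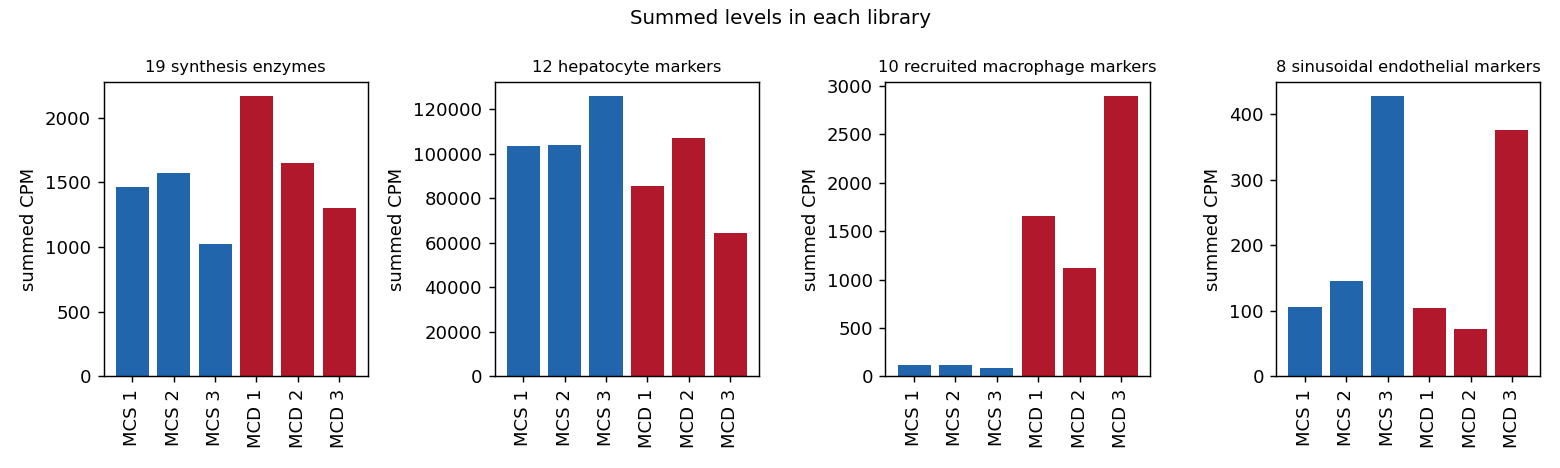
Summed CPM (vertical, from 0, a separate scale in each panel) of the 19 enzymes and of 3 marker lists in each library, MCS in blue and MCD in red. The enzyme sum is lowest and the endothelial sum highest in MCS 3, while the macrophage sum is at least 1116 CPM in every MCD library.

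Among the sensor genes, Scap fell and the other 3 did not pass, where 9.96% of all tested genes fell. Scap (ENSMUSG00000032485), the escort of SREBP2 and SREBP1, was at 179.7, 189 and 154 CPM on MCS and 91.4, 110.2 and 74.7 CPM on MCD. The diets did not overlap. Scap was 1.89-fold lower on MCD (log2 fold change −0.92 ± 0.18, adjusted p = 0.00915), a change that was −0.39 with library size alone and −0.28 on the log2(TPM + 1) scale, where it did not pass (adjusted p = 0.0880; lowest of 15 alternatives 2.55e-05). Srebf2 (ENSMUSG00000022463), which encodes SREBP2, was at 59.96, 68.9 and 43.2 CPM on MCS and 74.1, 75.8 and 61.6 CPM on MCD (0.30 ± 0.19, adjusted p = 0.265). Insig1, an SREBP2 target that closes the feedback loop, was at 134, 120.0 and 76.2 CPM on MCS and 131, 111 and 90.8 CPM on MCD. Its log2 fold change was 0.01 ± 0.23 (adjusted p = 0.980), and its sign turned without MCS replicate 3 (−0.21). Insig2, which is not driven by SREBP2 and has a liver-specific transcript, was at 70.1, 117 and 86.9 CPM on MCS and 96.6, 119 and 125 CPM on MCD (0.32 ± 0.21, adjusted p = 0.285). MCS replicate 3 was the lowest control for Srebf2, Scap and Insig1 and lay between the other controls for Insig2.

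Of the genes that move, store or dispose of sterol, 1 of 4 rose, against 14.8% of all tested genes. Soat1 (ENSMUSG00000026600), the sterol acyltransferase found in most cells and prominent in macrophages, was at 4.37, 3.62 and 7.72 CPM on MCS and 31.8, 22.2 and 50.1 CPM on MCD. Every MCD library was above every MCS library. The rise was 6.57-fold (log2 fold change 2.72 ± 0.38, adjusted p = 0.00321), the largest of the 27, and passed under all 15 alternatives (adjusted p = 2.57e-11 to 0.0188). Soat2 (ENSMUSG00000023045), the acyltransferase of hepatocytes and enterocytes, was at 37.9, 32.4 and 25.3 CPM on MCS and 32.4, 32.7 and 18.5 CPM on MCD (−0.19 ± 0.24, adjusted p = 0.582; 0.33 with library size alone). All 10 markers of recruited macrophages rose, and their sum went from 89.97 to 119.5 CPM on MCS to 1659, 1116 and 2892 CPM in MCD replicates 1 to 3. On MCD the order of the libraries was the same for Soat1 and for the macrophage, stellate, cholangiocyte and endothelial sums. Spp1 is on both the macrophage and the cholangiocyte list. It made up 317, 175 and 522 CPM of the cholangiocyte sum of 351, 194 and 565 CPM on MCD. On MCS, Soat1 was highest in replicate 3, as were the Kupffer cell, stellate and endothelial sums. The macrophage and cholangiocyte sums were lowest there, where Spp1 was at 33.9 CPM against 56.6 and 57.2 CPM. The Kupffer cell sum was 296, 330 and 363 CPM on MCS and 219, 366 and 382 CPM on MCD. Gpnmb, the macrophage marker with the highest mean level, was at 348 to 921 CPM on MCD, and no marker of the list was at 0. The share of Soat1 that came from macrophages was not tested.

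Stard4, a soluble carrier of cholesterol, was at 81.5, 55.0 and 52.5 CPM on MCS and 62.1, 48.2 and 39.7 CPM on MCD (−0.33 ± 0.22, adjusted p = 0.287; 0.21 with library size alone). Mylip (ENSMUSG00000038175), a ubiquitin ligase induced by LXR that degrades lipoprotein receptors, was at 5.52, 4.38 and 14.1 CPM on MCS and 7.42, 5.34 and 18.8 CPM on MCD. It was highest in replicate 3 of both diets and did not differ beyond its spread (0.39 ± 0.59, adjusted p = 0.665). The endothelial, stellate and Kupffer cell marker sums were also the highest of their diet in these libraries, and their part in Mylip was not tested.

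Between genes, levels can be compared per transcript length in TPM. Ebp (173 ± 13.9 TPM, SD, n = 3), Sc5d (153 ± 7.90) and Fdps (84.2 ± 44.1) were the highest of the 27 on MCS, and Mvd (3.46 ± 1.06), Ggps1 (3.02 ± 1.01) and Soat1 (1.66 ± 0.810) the lowest. On MCD the order was led by Sc5d (229 ± 44.2 TPM), Hmgcs1 (214 ± 105) and Fdps (206 ± 66.8), whose ranges overlapped widely. Hmgcs1 went from the 11th to the 2nd place and Ebp from the 1st to the 6th. On the log2(TPM + 1) scale the median gene was higher on MCD by 0.53, so places rather than levels are comparable across the diets.

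Other genes of sterol biology were counted from 5 lists, of which 66 of 68 genes were tested: 4 rose and 12 fell, with a median log2 fold change of −0.27. For these lists and each of them, the shares over all tested genes were 14.8% up and 9.96% down. Of 4 further genes assigned to the synthesis route, 0 passed edgeR's test, 3 had an unadjusted p under 0.05 and DESeq2 called 2 up and 1 down. Among 17 genes that process SREBP or carry out sterol-regulated degradation, 0 rose and 5 fell. Marchf6, a ligase that degrades squalene epoxidase, was at 187 to 232 CPM on MCS and 105 to 139 CPM on MCD (−0.84 ± 0.17, adjusted p = 0.0106). Srebf1, the lipogenic relative of Srebf2, was at 158 to 212 CPM on MCS and 74.7 to 112 CPM on MCD (−0.84 ± 0.21, adjusted p = 0.0200). Both fell, as Scap did, but neither passed with library size alone (−0.30 and −0.31, adjusted p = 0.0681 and 0.135), on the log2(TPM + 1) scale or in the 3 fits that left out MCS replicate 1, MCS replicate 2 and MCD replicate 1 (adjusted p over 15 alternatives 1.73e-05 to 0.260 and 0.000956 to 0.239).

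In sterol uptake and movement, 2 of 16 tested genes rose and 2 fell (Npc1l1, the other listed gene, had too few counts). Npc2, the lysosomal cholesterol carrier, rose from 74.4 to 77.3 CPM on MCS to 137 to 185 CPM on MCD (1.02 ± 0.16, adjusted p = 0.00385), as did Gramd1b, which moves cholesterol from the plasma membrane to the endoplasmic reticulum (1.91 ± 0.47, adjusted p = 0.0211). The endocytic receptor Lrp1 was among the genes that fell (−0.88 ± 0.26, adjusted p = 0.0395), but did not pass with library size alone (−0.32, adjusted p = 0.240). Among 13 tested genes of LXR action and sterol efflux, 2 rose and 4 fell (Ch25h was not tested). The oxysterol hydroxylase Cyp7b1 was at 394, 376 and 159 CPM on MCS and 28.4, 33.6 and 21.3 CPM on MCD, 11.2-fold lower (−3.48 ± 0.37, adjusted p = 0.000890), and the canalicular sterol transporter subunit Abcg8 fell by 0.85 on the log2 scale (adjusted p = 0.0189). The efflux transporter Abcg1 and the cholesteryl ester hydrolase Nceh1, both known in macrophages, rose by 1.51 ± 0.27 and 0.72 ± 0.18 (adjusted p = 0.00604 and 0.0200). Abcg8 did not pass with library size alone (−0.33, adjusted p = 0.0830), and Gramd1b, Lrp1, Nceh1 and Abcg8 each missed the threshold in at least 3 of the 6 fits without 1 library. Of 16 genes that use isoprenoids for prenylation, dolichol or ubiquinone, 0 rose and 1 fell, the ubiquinone methyltransferase Coq5 (−0.47 ± 0.13, adjusted p = 0.0313; 0.07 with library size alone). Coq5 passed in 1 of the 6 fits without 1 library and under 6 of 15 alternatives (adjusted p = 0.0204 to 0.685).

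In the authors' deposited table, 18 of the 27 genes had a false discovery rate under 0.05, all 18 higher on MCD and 0 lower, where 20.5% of all 21899 genes were higher and 1.31% lower at that rate. These 21899 include 5317 genes with 0 counts in every library, whereas all 27 passed the count filter, so the shares are not like for like. Log2 ratios of group mean TPM were above 0 for 24 of the 27 in the authors' deposited table. Of the 7 genes called here, the 4 that rose also had a false discovery rate under 0.05 in the authors' deposited table. Tm7sf2, Ebp and Scap had log2 fold changes of −0.46, −0.35 and −0.28 and false discovery rates of 0.0959, 0.0693 and 0.224 in the authors' deposited table. By the annotation in the authors' deposited table, 8 of the 27 genes belong to terpenoid backbone synthesis, 13 to steroid biosynthesis and 6 to neither.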

How the data were processed

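Liver polyA RNA was sequenced from 3 MCS and 3 MCD libraries, grouped by title. The submitters' processing notes name GRCm39, RSEM, StringTie 1.3.1, HISAT2 2.1.0, Bowtie2 2.2.8 and fastp 0.18.0 without saying what each did; whether counting used strand was not stated there. The authors' deposited table holds whole-number counts, treated as estimated counts rounded before deposit because 64 values of 0 have a TPM above 0. It also holds the authors' TPM, their log2 ratio of group mean signal (mean TPM), and their p-value and FDR, from a test that the sources used here do not name. TPM shares a fixed total, so abundant genes can move all others.

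Counts were tested in R 4.3.3 with edgeR 4.0.16 (TMM, filterByExpr with a minimum count of 10, robust quasi-likelihood, diet as the only term), with Benjamini-Hochberg adjustment over 12599 genes and calls at adjusted p under 0.05. SE is the log2 fold change over the square root of F. DESeq2 1.42.0, limma 3.58.1 (voom, and log2(TPM + 1) with a pseudocount of 1), other scalings and filters, and left-out libraries were alternatives. Replicates of a diet were not copies: chi-square over its degrees of freedom was 14.04 to 158. It was 14.04 between MCS replicates 1 and 2, and 158 and 141 between these and MCS replicate 3. On MCD it was 33.5 to 116. Scripts were tested on simulated data. The floor of 3 counts covers counting error only. The 27 genes and the lists were chosen with earlier results of these data known. The rule named all 27 genes and, per other list, at most 2 called genes in each direction; not every gene it names is reported here.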

Additional observations from a re-analysis of the deposited data

How the results depend on the processing

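Of the 7 called genes, Tm7sf2 and Soat1 passed under all 15 alternatives, Hmgcs1, Mvd, Ebp and Scap under 14 and Idi1 under 10, with no change of direction. With library size alone 5094 genes rose and 348 fell, 14 of the 27 rose, and 18 genes of the other sterol lists rose and 2 fell. On the log2(TPM + 1) scale 5449 rose and 264 fell, 20 of the 27 rose and 1 fell, and 22 and 2 of the other lists did. DESeq2 called 19 of the other lists down. MCD replicate 3 was lowest of its diet for 13 genes with library size alone and for 8 in TPM.

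Without 1 library in turn, 946 to 2363 genes rose and 400 to 2072 fell, 2 to 4 of the 27 rose, and 2 to 7 of the other lists rose and 1 to 21 fell; the low ends for all genes came without MCS replicate 1 or 2 or MCD replicate 1, the high ends without MCD replicate 2. Values near 0 changed sign in these fits. Acat2 ranged from −0.10 to 0.29, Fdft1 from −0.0793 to 0.23, Hsd17b7 from −0.21 to 0.25 and Sc5d from −0.25 to 0.0832. Dhcr7 ranged from −0.20 to 0.36, Insig1 from −0.21 to 0.17 and Soat2 from −0.35 to 0.0343. Mylip, with a wide SE (0.39 ± 0.59 with all libraries), also changed sign, from −0.34 to 1.07. Without replicate 3 of both diets Hsd17b7, Dhcr7 and Insig1 were at −0.091, −0.0157 and −0.0723. With library size alone and on the log2(TPM + 1) scale Sc5d was at 0.44 and 0.56, Stard4 at 0.21 and 0.33, Soat2 at 0.33 and 0.43 and Coq5 at 0.0692 and 0.20. The cause was not tested.

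Replicate numbers are shared by the diets. Deviations from the diet means correlated by 0.06, 0.15 and 0.25 for numbers 1 to 3 over 12599 genes. The value for number 3 was the highest of all pairings, and replicate 3 of either diet correlated with the other numbers by −0.22 to −0.08. Deviations from a diet mean cancel within each gene, so a positive value for number 3 obliges negative ones with the other numbers in total. The negative values are therefore no separate result. MCS replicate 1 correlated more with MCD replicate 2 (0.13) than with MCD replicate 1. The numbers were not taken as pairs in the main fit, and a replicate block was an alternative. With a replicate block 1988 genes rose and 1296 fell, 9 of the 27 passed, Sqle (1.34) and Msmo1 (0.78) in addition to the 7, and 7 genes of the other lists rose.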
